A study of Mus musculus with 8 samples.

Results

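Slc10a4, Mlc1, Rbm45 and Asb17 are 4 genes whose array signal lay far lower in Arid3b-null than in wild-type mouse embryos and which belong to no body-patterning gene family. They were selected on that measured difference in log2 signal, so their null and wild-type values are a description and carry no test. They are 4 of the 27670 genes on the array, of which 17099 were bright enough to be compared, and 5 of its 41174 probes read them. The samples were 4 pools of Arid3b-null embryos and 4 pools of wild-type embryos. Each pool held total RNA of 3 to 4 whole embryos at embryonic day 9.0 and was hybridised to its own 1-colour Agilent array. How the null allele was made, the strain, and whether the pools came from different litters are not given in the sources used here. The p-values below therefore measure the spread between these pools. In RNA of whole embryos, fewer cells of a type and less RNA per cell cannot be told apart.

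The 4 genes have no known function in common. Slc10a4 encodes a member of the bile acid transporter family that sits on synaptic vesicles of cholinergic and monoaminergic neurons. Mlc1 encodes a membrane protein of astrocytes that works with the adhesion protein GlialCAM, and loss of it in people causes a leukoencephalopathy with cysts. Rbm45 encodes an RNA-binding protein with RNA recognition motifs that is made in developing neural tissue and is found in inclusions in amyotrophic lateral sclerosis. Asb17 encodes an ankyrin repeat protein with a SOCS box, the module through which such proteins join CUL5 ubiquitin ligases, and in adult mice it is known from the testis. Arid3b itself encodes a DNA-binding protein with an AT-rich interaction domain.

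Each value below is the brightness of a single 60-base spot, so the probe decides what was read. The 4 probes that gave values are shown 5′ to 3′, with no base marked. They carry their positions on mouse build mm7 as the files give them.
Slc10a4, chr5:72387349-72387408, plus strand: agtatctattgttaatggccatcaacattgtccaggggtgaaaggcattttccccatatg
Mlc1, chr15:89038294-89038353, minus strand: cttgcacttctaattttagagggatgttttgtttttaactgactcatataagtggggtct
Rbm45, chr2:76224247-76227195, plus strand: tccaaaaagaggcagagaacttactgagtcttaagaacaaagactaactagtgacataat
Asb17, chr3:153764058-153764116, plus strand: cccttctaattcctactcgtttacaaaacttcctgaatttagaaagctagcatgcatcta
The Rbm45 coordinates span 2949 bases for a 60-base probe, so its ends lie in genomic blocks that are not contiguous. The files name that probe Drbp1, an older name, and it was matched to Rbm45 by its RefSeq transcript. GC content was 41.7% for the Slc10a4 probe, 36.7% for that of Asb17 and 35.0% for those of Mlc1 and Rbm45, against a median of 40.0% over the array's probes.

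The fifth probe reads Slc10a4 too and lies upstream of the first, at chr5:72387140-72387199 on the plus strand.
Slc10a4, dim probe: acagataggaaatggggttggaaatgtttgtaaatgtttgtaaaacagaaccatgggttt
Its GC content was 35.0%. It was not well above background on any of the 8 arrays. Its processed signal was 22.1, 5.5, 9.7 and 7.8 in null pools 1 to 4, and 7.6, 7.6, 7.3 and 8.3 in wild-type pools 1 to 4. It gives no second reading of the gene. All values of Slc10a4 below come from the brighter probe.

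Across the whole series, each array had 59.9% to 64.0% of its probes well above background and a 75th percentile of 1280 to 1703 signal units. Pools 1 and 2 of both groups were on one slide and pools 3 and 4 of both groups on another, with the null arrays always at the later positions. Position on the slide and genotype therefore cannot be told apart. The 3 probes of Arid3b read 30.8%, 39.2% and 30.2% of the wild-type signal in null pools, and null pool 4 was the highest null pool on each of them, at 44.0% to 54.2%. The comparison over all genes called 718 of 17099 genes (4.2%), 487 of them higher (2.85%) and 231 lower (1.35%) in null pools.

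Slc10a4, the vesicle protein, had a processed signal of 75.9, 43.0, 60.2 and 66.8 in null pools 1 to 4, against 146.0, 142.0, 141.5 and 130.9 in wild-type pools 1 to 4. Every null pool lay below every wild-type pool, and the wild-type pools were close together. The spot was well above background on all 8 arrays. On the log2 scale, after subtraction of each array's 75th percentile, it averaged -4.61 ± 0.24 in null pools and -3.46 ± 0.15 in wild-type pools (SD, n = 4 each). The difference was -1.15 ± 0.14 (SE), which is 45.1% of the wild-type signal. The highest null pool and the lowest wild-type pool were 0.76 apart, the widest such gap of the 4 genes.

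Mlc1, the astrocyte membrane protein, had a processed signal of 84.0, 53.7, 75.5 and 75.7 in null pools 1 to 4, against 153.2, 180.9, 160.3 and 156.1 in wild-type pools 1 to 4. The groups did not overlap, with null pool 2 the lowest of the null pools and wild-type pool 2 the highest of all. Its level averaged -4.37 ± 0.16 in null pools and -3.25 ± 0.26 in wild-type pools (log2, SD, n = 4 each). The difference was -1.12 ± 0.14 (SE), or 46.1% of wild type, with 0.70 between the groups. Mlc1 was the member with the narrowest spread over null pools, at an SD larger than that of 40.2% of all genes.

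Rbm45, the RNA-binding protein, was the brightest of the 4 probes and the one with the largest difference. Its processed signal was 155.3, 395.5, 243.9 and 259.0 in null pools 1 to 4, and 742.8, 493.6, 909.9 and 768.2 in wild-type pools 1 to 4. Null pool 2 was far above the other null pools, and wild-type pool 2 was the lowest wild-type pool, so the pools numbered 2 nearly met. Its level averaged -2.56 ± 0.66 in null pools and -1.12 ± 0.25 in wild-type pools (log2, SD, n = 4 each). The difference was -1.44 ± 0.31 (SE), or 36.9% of wild type, and the groups were 0.25 apart. The SD over null pools exceeded that of 93.2% of all genes. Between same-numbered pools the difference was -2.09, -0.25, -1.80 and -1.62 for pools 1 to 4.

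Asb17, the SOCS box protein, had a processed signal of 54.2, 32.1, 48.2 and 80.8 in null pools 1 to 4, against 143.4, 125.3, 113.5 and 98.4 in wild-type pools 1 to 4. Null pool 4 was the highest null pool and wild-type pool 4 the lowest wild-type pool, and no null pool reached a wild-type one. The spot was well above background in 3 of 4 null pools, the exception being pool 3, and in 4 of 4 wild-type pools. Its level averaged -4.85 ± 0.45 in null pools and -3.70 ± 0.24 in wild-type pools (log2, SD, n = 4 each). The difference was -1.15 ± 0.23 (SE), or 45.1% of wild type, with 0.33 between the groups. Pool 4 gave a difference of -0.33, against -1.24, -1.9 and -1.13 for pools 1 to 3.

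**Figure D1:**
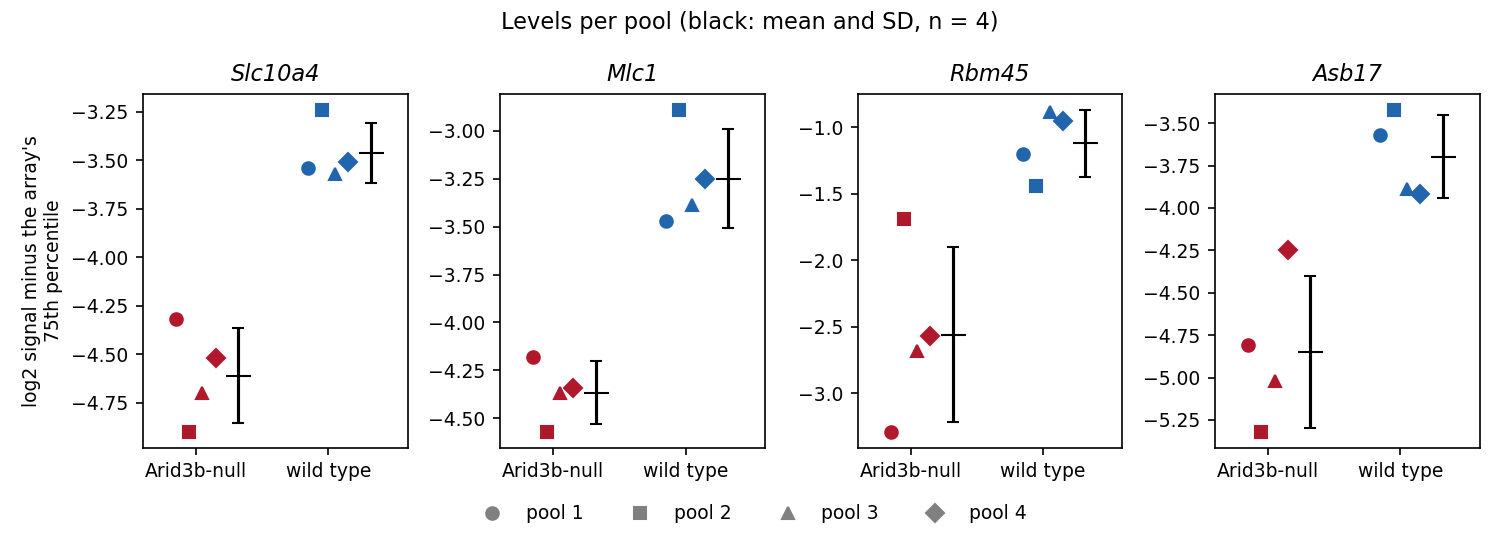
Log2 processed signal minus each array's 75th percentile for Slc10a4, Mlc1, Rbm45 and Asb17, with null pools left of wild-type pools. Points are single pools, with the marker shape giving the pool number, and bars are the mean and SD (n = 4 each). No null point reaches a wild-type point in any panel, and the gap is 0.76 for Slc10a4 and 0.25 for Rbm45.

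Ordered by the size of the difference among all 17099 genes with any p, Rbm45 was the 20th most negative, Asb17 the 31st, Slc10a4 the 32nd and Mlc1 the 34th. In all, 45 genes (0.263%) were at least 2-fold lower in null pools. All 4 members were among the 1378 genes (8.06%) whose null pools all lay below all wild-type pools, a count that the choice of members fixes, and 1382 genes (8.08%) were separate in the other direction. Among other named genes that the comparison called and whose groups did not overlap, those next to Rbm45 in size of difference were Jaml at -1.52 and Nhlh2 at -1.39. Those next to Asb17, Slc10a4 and Mlc1 were Arid3b at -1.35 and Csf2rb at -1.09. The values just inside and just outside the members' range were thus -1.12 for Mlc1 and -1.09 for Csf2rb.

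Slc10a4, Mlc1 and Asb17 were dim. The lowest signal that counted as well above background was 22.3 to 38.3 on the null arrays and 22.5 to 28.6 on the wild-type arrays. The 3 genes read 32.1 to 84.0 in null pools and 98.4 to 180.9 in wild-type pools. These lowest signals are not a cutoff. Asb17 read 48.2 in null pool 3, above the 38.3 of that array, and was not well above background there. Feature Extraction's own error estimate for Asb17 was 6.9 to 11.5 signal units in null pools and 11.4 to 15.7 in wild-type pools. For such spots the background correction matters. With the normexp correction the groups overlapped for Slc10a4, Mlc1 and Asb17, since null pool 4 and wild-type pool 4 were both raised. The tenth percentile of the log2 signal was then 9.12 on the array of null pool 4 and 9.88 on that of wild-type pool 4, and 6.11 to 7.28 on the other arrays. Within each same-numbered pair the null pool still had the lower value for all 4 members. Rbm45 kept separate groups, 0.20 apart.

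**Figure D2:**
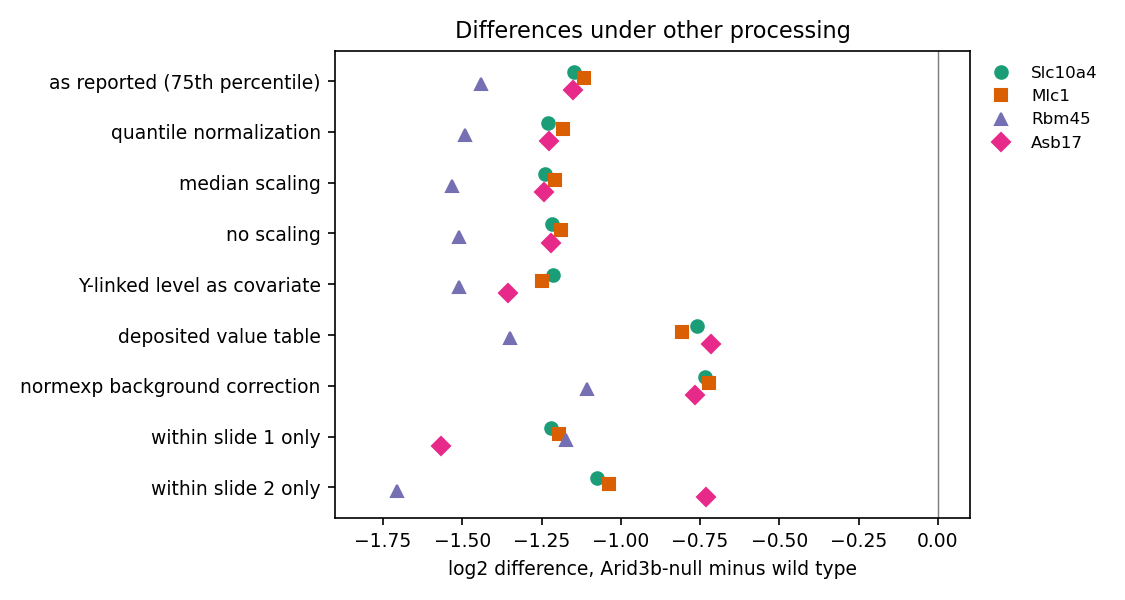
Difference in log2 signal, null minus wild type, of each member, as reported and under some of the processing alternatives. Those drawn are quantile normalization, median scaling, no scaling, the level of Y-linked genes as a covariate, the deposited table, normexp, and each slide alone. All points lie below 0, between -1.71 and -0.71.

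The null pools did not order the same way for the 4 genes. As a percentage of the wild-type mean, null pools 1 to 4 read 55.1%, 37.0%, 42.5% and 47.9% for Slc10a4. For Mlc1 they read 52.7%, 40.0%, 45.9% and 46.9%, the same order of pools. Rbm45 ran the other way, at 22.2%, 67.1%, 33.8% and 36.6%. Null pool 1 was the lowest for Rbm45 and the highest for Slc10a4 and Mlc1, and null pool 2 was the highest for Rbm45 and the lowest for the other 3 genes. Asb17 read 46.3%, 32.6%, 40.0% and 68.2%, with null pool 4 highest.

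The same was seen in the deviations of the 8 arrays from their group means. Pearson's r between deviations was 0.87 for Slc10a4 with Mlc1, 0.66 for Slc10a4 with Asb17 and 0.47 for Mlc1 with Asb17. Rbm45 had r of -0.89 with Slc10a4, -0.70 with Mlc1 and -0.55 with Asb17. These are descriptions over 8 arrays. The values share the array, its scaling and the pool of embryos. In wild-type pool 2 the deviation was 0.23 for Slc10a4, 0.36 for Mlc1 and 0.28 for Asb17, against -0.32 for Rbm45. In null pool 2 it was -0.29 for Slc10a4, -0.21 for Mlc1 and -0.47 for Asb17, against 0.86 for Rbm45.

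**Figure D3:**
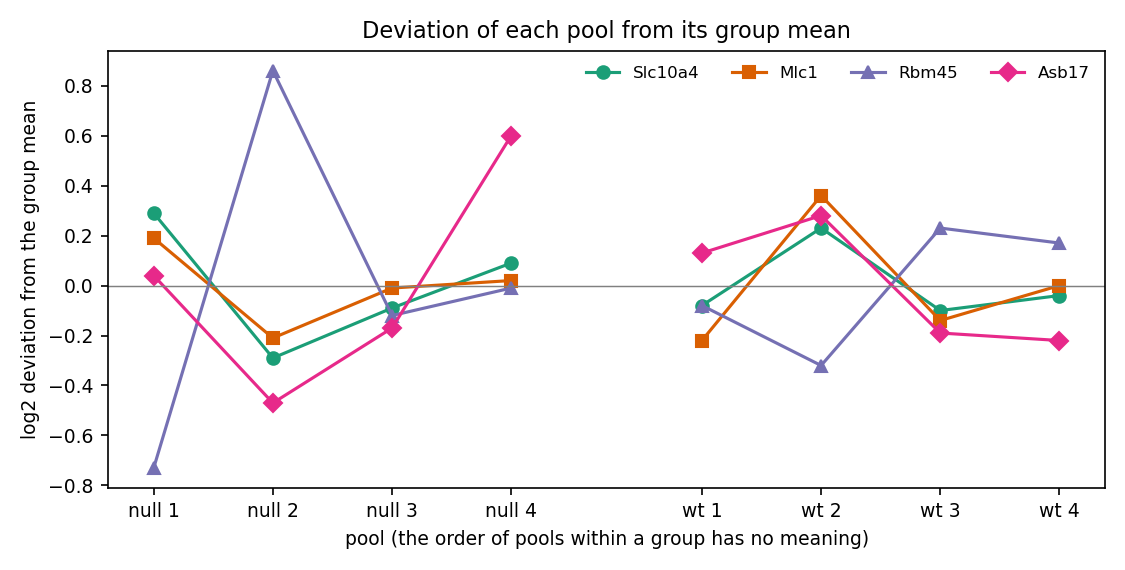
Deviation of each pool from its group mean, in log2 units, for the 4 members, null pools left of wild-type pools. Null pool 2 is at 0.86 for Rbm45 and at -0.47 for Asb17, and Rbm45 lies opposite to Slc10a4 in null pools 1 and 2.

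Slide was a contrast that the choice of members did not use. With genotype in the fit, slide 2 minus slide 1 was -0.07 for Slc10a4 (95% interval -0.40 to 0.25, limma adjusted p = 0.772). It was -0.06 for Mlc1 (-0.40 to 0.28, limma adjusted p = 0.826), 0.13 for Rbm45 (-0.62 to 0.88, limma adjusted p = 0.826) and 0.01 for Asb17 (-0.55 to 0.57, limma adjusted p = 0.983). The test called 0 of the 4 members, none of them at an unadjusted p under 0.05 either, against 2123 of 17097 genes (12.4%) past the adjusted threshold and 27.6% with an unadjusted p under 0.05. Without null pool 2 the slide difference of Rbm45 was 0.51 and passed, with a limma adjusted p of 0.0223.

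The null and wild-type difference itself was also set side by side on the slides. It was -1.22 on slide 1 and -1.08 on slide 2 for Slc10a4, and -1.19 and -1.04 for Mlc1. Rbm45 had -1.17 on slide 1 and -1.71 on slide 2, and Asb17 had -1.57 and -0.73. The difference on slide 2 minus that on slide 1 was 0.84 ± 0.39 (SE) for Asb17, with a 95% interval of -0.11 to 1.78, a p of 0.0747 in limma and an adjusted p of 1.0. The intervals were -0.57 to 0.86 for Slc10a4, -0.60 to 0.91 for Mlc1 and -2.13 to 1.06 for Rbm45. None of the 4 passed in limma, and none had an unadjusted p under 0.05. Over all genes 1 of 17097 (0.00585%) passed, and 376 (2.20%) had an unadjusted p under 0.05.

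The genes most like each member over the 8 arrays were taken by Pearson's r of log2 levels among 13893 named genes. These r include the genotype difference for which the members were chosen, so the r of deviations from group means stands beside each. The deviations are also part of the r by which the genes were picked, so high values of both follow in part from the pick. They are descriptions and carry no test. For Slc10a4 they were Lypd6, which encodes a modulator of nicotinic acetylcholine receptors (r = 0.99, deviations 0.93), Ahsa2 (0.99, deviations 0.90) and Srxn1 for sulfiredoxin (0.98, deviations 0.76). Lypd6 differed by -0.29 between null and wild-type pools, and by 0.02 when all its kept probes were averaged. For Mlc1 they were Neurod4, a proneural transcription factor gene (r = 0.98, deviations 0.85), Srxn1 (0.98, deviations 0.84) and Rbm12b1 (0.98, deviations 0.88). Neurod4 was not well above background in any null pool.

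For Asb17 they included genes of the red cell lineage. Gata1, an erythroid transcription factor gene, had r = 0.99 and deviations at 0.97, Lrrc28 had 0.99 and 0.96, and Klf1, another erythroid factor gene, had 0.99 and 0.95. Gata1 read -2.01, -2.35, -2.06 and -1.56 in null pools 1 to 4, and -1.11, -1.13, -1.46 and -1.36 in wild-type pools 1 to 4. As with Asb17, null pool 2 was lowest and null pool 4 highest. Of the embryonic globin genes, Hba-x read 6.44, 6.50, 5.78 and 6.74 in null pools 1 to 4, against 6.77, 6.95, 6.25 and 6.39 in wild-type pools 1 to 4. Null pool 4 was the highest null pool there too, but pool 3 the lowest. Hbb-y read 4.91, 5.81, 4.90 and 5.56 in null pools 1 to 4, against 5.71, 6.04, 5.58 and 5.65 in wild-type pools 1 to 4, with null pool 2 the highest null pool. Hbb-bh1 read 7.08, 7.8, 6.99 and 7.46 in null pools 1 to 4, again with null pool 2 the highest null pool. In wild-type pools 1 to 4 it read 7.37, 7.79, 7.05 and 7.3.

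For Rbm45 the most alike genes were Nup62, a nuclear pore gene (r = 0.96, deviations 0.87), Jaml, an adhesion molecule gene (0.96, deviations 0.83), and Nlrx1 (0.96, deviations 0.86). Jaml read -4.85, -3.64, -4.12 and -3.90 in null pools 1 to 4, and -2.78, -2.50, -2.53 and -2.62 in wild-type pools 1 to 4. Null pool 1 was lowest and null pool 2 highest, as for Rbm45. Nup62 had the same lowest and highest null pools over a far smaller range, 3.8 to 3.96 in null pools and 4.01 to 4.03 in wild-type pools. Its null pool 3 lay above null pool 4 (3.92 and 3.87), while for Rbm45 null pool 3 lay below null pool 4 (-2.68 and -2.57).

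**Figure D4:**
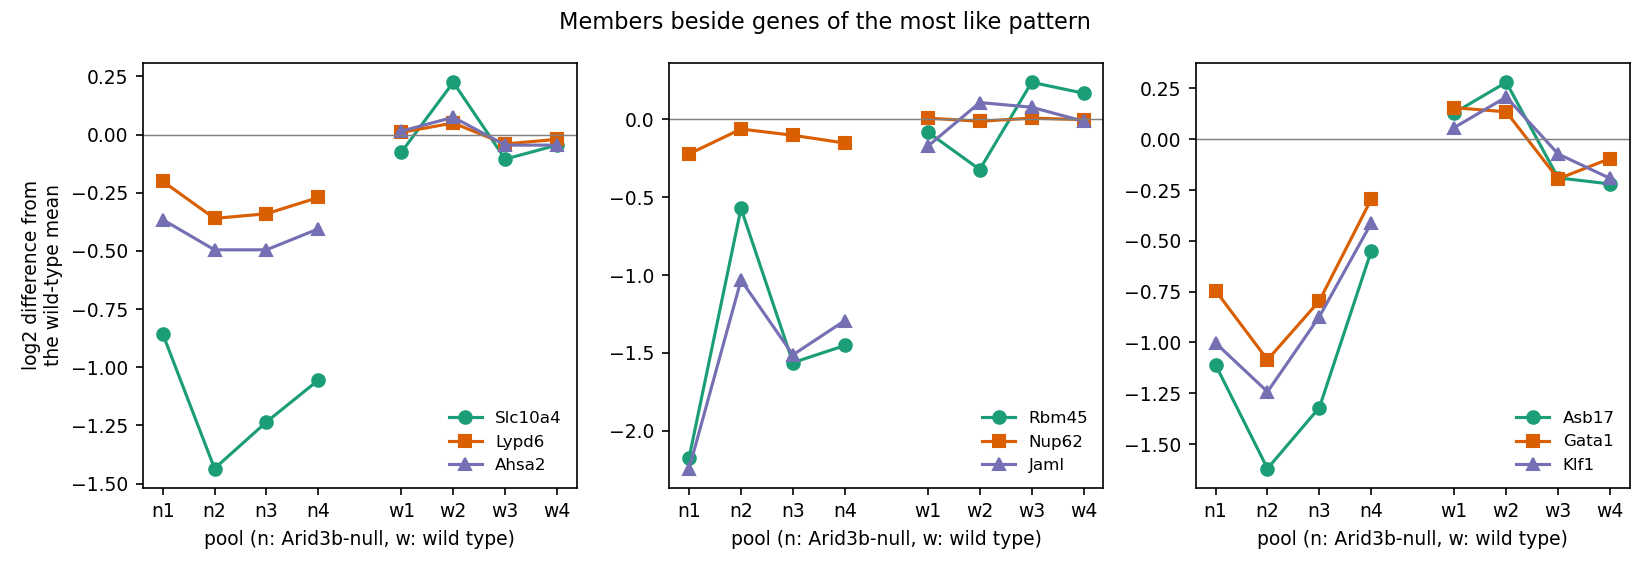
Log2 difference from each gene's wild-type mean, by pool, for 3 members, each beside 2 of the genes most like it. The panels hold Slc10a4 with Lypd6 and Ahsa2, Rbm45 with Nup62 and Jaml, and Asb17 with Gata1 and Klf1. Null pools are left of wild-type pools, lines join values of a gene and the pools have no order. Gata1 and Klf1 have null pool 4 highest among null pools, as Asb17 does, while Nup62 and Jaml have null pool 2 highest, as Rbm45 does.

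The relatives and partners of the 4 proteins were read from 8 lists of 88 other genes, of which 4 were not on the array, 17 were dim and 67 were measured. Over these 67, 1 gene was higher and 1 was lower in null pools, against 4.2% of all genes called. An unadjusted p under 0.05, given below for each list, was found for 23 of the 67 and for 3532 of 17099 genes (20.7%). Of the 67, 44 had a lower mean in null pools, as did 51.3% of all genes. Their median difference was -0.09, against -0.01 over all genes. With the replicate number as a block, 2 were higher and 11 lower, while over all genes the block called 7.78% higher and 5.92% lower (13.7% in all). Whether the replicate numbers pair the pools is not known.

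Of the SLC10 family, Slc10a5 was not on the array, 3 genes were dim, and Slc10a3 and Slc10a7 were measured. Neither was called by limma (1 had an unadjusted p under 0.05), at -0.36 ± 0.12 for Slc10a3 (SE, adjusted p = 0.126) and -0.15 ± 0.11 for Slc10a7 (adjusted p = 0.501). Slc10a3 was called with the replicate block (limma adjusted p = 0.0292) and with slide as a block (limma adjusted p = 0.0450). Of 14 genes of cholinergic and monoaminergic neurons, the setting in which SLC10A4 is known, 5 were dim. They included Chat for choline acetyltransferase, and Slc18a3 and Slc5a7 for the acetylcholine and choline transporters. Of the 9 measured, limma called 0 (2 had an unadjusted p under 0.05), 5 had a lower mean in null pools and the median was -0.13. Ddc, which encodes the decarboxylase of dopamine and serotonin synthesis, came nearest at -0.28 ± 0.06 (SE, limma adjusted p = 0.0517, and 0.0371 with the replicate block). Ddc was also called with slide as a block (limma adjusted p = 0.0337).

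Of 10 partner genes of MLC1, all measured, Cav1 for caveolin 1 rose. It read 0.63, 0.62, 0.33 and -0.04 in null pools 1 to 4, against -0.96, -0.93, -0.71 and -0.97 in wild-type pools 1 to 4. No null pool came as low as a wild-type pool. The difference was 1.28 ± 0.16 (SE, limma adjusted p = 0.00789), a 2.43-fold rise. The call was lost with normexp (limma adjusted p = 0.236) and within slide 1 (0.152) or slide 2 (0.166). The other 9 were not called. Of the 10, 3 had an unadjusted p under 0.05 and 3 had a lower mean in null pools. Hepacam, which encodes GlialCAM, differed by 0.55 ± 0.53 (SE, limma adjusted p = 0.624) and was well above background in 3 of 4 null and 3 of 4 wild-type pools. Kcnj10, a glial potassium channel gene, differed by -0.47 ± 0.19 (limma adjusted p = 0.203) and Aqp4, the astrocyte water channel gene, by -0.38 ± 0.25 (limma adjusted p = 0.461). Both were called with the replicate block, at limma adjusted p of 0.0200 for Kcnj10 and 0.0444 for Aqp4.

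Of 12 radial glia and astrocyte genes, 2 were dim, Gfap and S100b, the usual markers of mature astrocytes. An unadjusted p under 0.05 was found for 4. Of the 10 measured, Fabp7, a fatty acid binding protein gene of radial glia, fell. It read 0.48, 0.47, 0.08 and 0.28 in null pools 1 to 4, against 0.93, 1.26, 0.97 and 0.88 in wild-type pools 1 to 4. The groups did not overlap. The difference was -0.68 ± 0.12 (SE, limma adjusted p = 0.0290), or 0.622 times wild type. The call was lost when null pool 3 or 4 or any 1 wild-type pool was left out, with limma adjusted p of 0.0523 to 0.0807. It was also lost with normexp (0.732), median scaling (0.0773) and no filter (0.0774), and within slide 1 (0.394) or slide 2 (0.147), all limma adjusted p. Nes and Hes5, genes of neural progenitors, were not called in the fit on genotype alone. They were called lower with the replicate block, at -0.38 and -0.26 (limma adjusted p = 0.0416 and 0.0466).

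Of 10 genes that encode RBM45 partners or parts of the m6A RNA methylation machinery, 9 were measured and limma called 0 (2 had an unadjusted p under 0.05), with a lower mean in null pools for 8 and a median of -0.13. Tardbp, which encodes the RNA-binding protein TDP-43, had -0.31 ± 0.09 (SE, limma adjusted p = 0.0969, and 0.0461 with the replicate block). Of 13 genes of other neuronal RNA-binding proteins, 11 were measured and limma called 0 (5 had an unadjusted p under 0.05), with 7 lower means and a median of -0.08. Celf3, a neuronal splicing regulator gene, had the smallest p, at -0.79 ± 0.19 (SE, limma adjusted p = 0.0621, and 0.0436 with slide as a block). Celf4 was called higher with the replicate block, at 0.44 (limma adjusted p = 0.0352).

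Of 17 other genes of the ASB family, 7 were dim and 10 were measured, and limma called 0 (5 had an unadjusted p under 0.05), with a median of -0.09. Asb6 had -0.33 ± 0.08 (SE, limma adjusted p = 0.0688). With the replicate block Asb6 and Asb13 were called lower, at limma adjusted p of 0.0352 for Asb6 and 0.0496 for Asb13. Asb6 was also called with slide as a block (limma adjusted p = 0.0392). All 6 genes of the CUL5 ligase, the complex that SOCS box proteins join, were measured with a lower mean in null pools, and limma called 0 (1 had an unadjusted p under 0.05), with a median of -0.11. Ube2f, which encodes a NEDD8-conjugating enzyme that acts on CUL5, had -0.32 ± 0.12 (SE, limma adjusted p = 0.173, and 0.0333 with the replicate block).

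**Figure D5:**
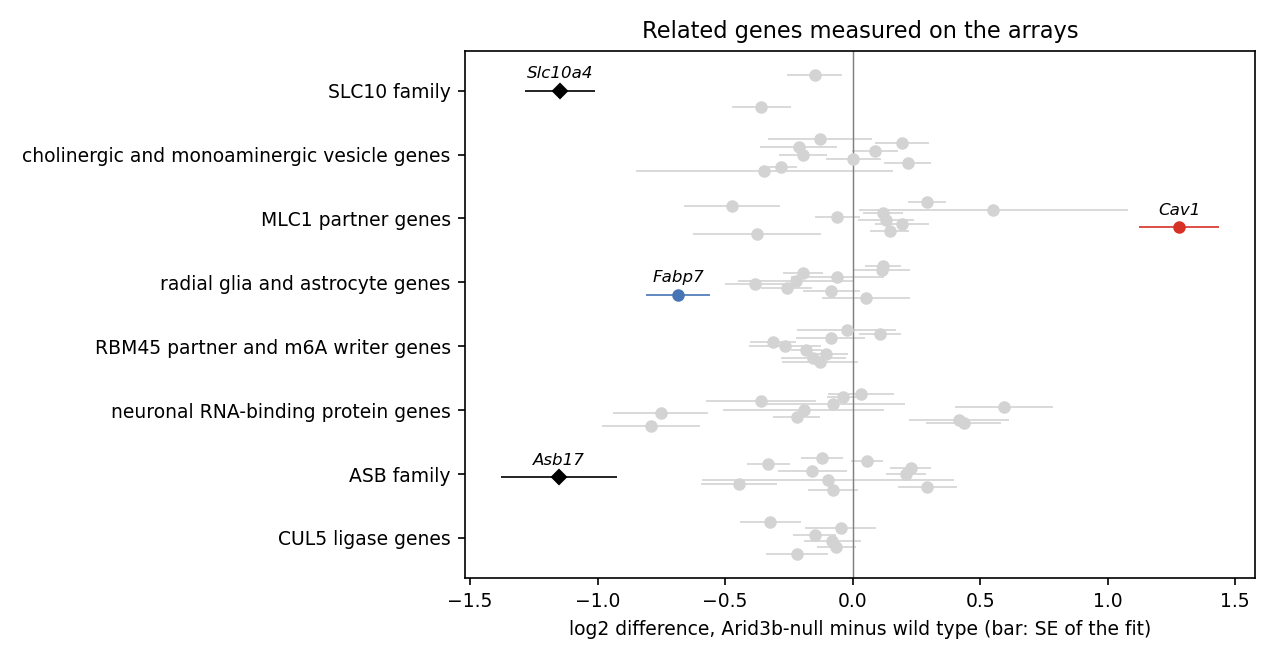
Difference in log2 signal, null minus wild type, of each measured gene of the 8 related lists, 1 list per row. Black diamonds are Slc10a4 and Asb17, which belong to their own family lists, red is a gene called higher (Cav1), blue a gene called lower (Fabp7) and grey a gene not called; both diamonds lie at -1.15.

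Markers of tissues that could hold these transcripts were read beside them. Over all genes tested, limma called 1.35% lower and 2.85% higher in null pools. An unadjusted p under 0.05 was found for 20.7% of them, and 51.3% had a lower mean in null pools. Of 10 markers of neural tube and early neurons, all measured, 1 (Neurod4) was called lower and 6 had an unadjusted p under 0.05. All 10 had a lower mean in null pools. Their summed level was 9.5 to 10.82 in null pools and 11.67 to 12.70 in wild-type pools, relative to each array's 75th percentile. Neurod4 was well above background in 0 of 4 null and 4 of 4 wild-type pools, so it passed the filter through the wild-type pools alone. Its call was lost with normexp, in the deposited table, within either slide, and without null pool 3 or wild-type pool 4 (limma adjusted p = 0.0539 and 0.0527). The 7 primitive red cell markers summed to 215.2 to 375.0 in null pools and 262.1 to 417.5 in wild-type pools. All 7 had a lower mean in null pools, and 2 had an unadjusted p under 0.05. Of these, 1, Klf1, was called lower (limma adjusted p = 0.0377). That call was lost without any 1 pool but null pool 4 (limma adjusted p of 0.0620 to 0.110), and with normexp, no scaling, no filter, the Y-linked covariate or either slide alone. Of 8 heart muscle markers, 7 were measured, 1 (Nppa) was called higher and 4 had an unadjusted p under 0.05. All 7 had a higher mean in null pools, with sums of 280.0 to 328.3 in null pools and 232.4 to 245.9 in wild-type pools. The 7 endothelial, 7 of 8 somite and limb, 8 yolk sac endoderm and 3 of 7 trophoblast markers that were measured had 0 calls in limma (2, 1, 0 and 0 had an unadjusted p under 0.05) and sums that overlapped between the groups. Myf5, a defining gene of muscle progenitors, and the trophoblast genes Tpbpa, Gcm1 and Psg17 were at background on all arrays. The deviations of each member were set against those of the mean of each list over the 8 arrays. Over the 7 tissue lists, r for Slc10a4 was -0.51 (heart muscle) to 0.59 (neural), and for Mlc1 -0.36 (heart muscle) to 0.67 (neural), with 0.63 for yolk sac endoderm. For Rbm45 it was -0.73 (neural) to 0.58 (heart muscle), with -0.64 for endothelium. For Asb17 it was -0.67 (heart muscle) to 0.70 (trophoblast), with 0.57 for primitive red cells. These r are descriptions over 8 arrays that share the scaling and the pools. The part of these tissues in the members' differences was not tested.

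The level of Y-linked genes, given as the mean over these genes of the signal relative to the highest array, was 0.516, 0.870, 0.479 and 1 in null pools 1 to 4, and 0.0228, 0.836, 0.280 and 0.0259 in wild-type pools 1 to 4. It was not matched between the groups. With this level as a covariate in the fit, the null minus wild-type difference was -1.21 for Slc10a4, -1.25 for Mlc1, -1.51 for Rbm45 and -1.36 for Asb17. The part of the Y-linked level in the members' differences was not tested.

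The promoters of the 4 genes were taken from RefSeq on build GRCm38.p6, 250 bases before to 50 after the annotated start, and all 4 matched. They were searched on both strands for ATTAAA, an AT-rich motif of the kind that ARID3 proteins are known to bind, which was chosen with the sequences at hand. It was found once each in the promoters of Slc10a4 and Mlc1, which are shown with the motif in capitals.
Slc10a4, chr5:73006654-73006953, plus strand: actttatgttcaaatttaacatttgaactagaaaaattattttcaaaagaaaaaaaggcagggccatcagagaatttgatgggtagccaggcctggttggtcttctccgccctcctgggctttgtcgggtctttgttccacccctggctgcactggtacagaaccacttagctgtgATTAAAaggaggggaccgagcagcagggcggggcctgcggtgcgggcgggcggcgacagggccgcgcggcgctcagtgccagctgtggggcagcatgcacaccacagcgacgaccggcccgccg
Mlc1, chr15:88978504-88978803, minus strand: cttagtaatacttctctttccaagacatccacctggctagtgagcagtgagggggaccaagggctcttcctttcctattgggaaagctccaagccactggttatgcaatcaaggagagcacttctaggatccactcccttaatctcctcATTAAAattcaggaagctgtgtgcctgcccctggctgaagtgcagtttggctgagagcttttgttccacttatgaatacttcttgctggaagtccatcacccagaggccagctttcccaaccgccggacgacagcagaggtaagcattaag
The motif starts at -74 from the start of Slc10a4 and at -101 from that of Mlc1. These letters were not in the windows of Rbm45 (chr2:76369734-76370033, plus strand) and Asb17 (chr3:153843997-153844296, plus strand). Of 32851 promoters in the table, 13.9% hold the motif. AT content was 42.7% for Slc10a4, 50.3% for Mlc1, 44.7% for Rbm45 and 49.7% for Asb17, around the median of 47.3% over all promoters. A match is a run of letters and no evidence of binding.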

How the data were processed

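Total RNA of whole embryos was hybridised to 8 one-colour arrays, 4 null and 4 wild type, grouped and numbered by their labels. Per the file headers, Feature Extraction 9.5.3.1 read each spot. Its deposited processed signal is a background-subtracted and detrended Cy3 intensity with no scaling between arrays. The deposited mean and local background intensities served for the normexp alternative (offset 50). The authors' deposited table of log2 values holds 27108 probes, and its columns have medians of 9.44 to 9.47. The steps behind it are not given in the sources used here. Its columns correlated at 0.988 to 0.99 with the log2 signal with a slope of 0.858 to 0.913, so its direction is settled while its exact scale and background correction are not.

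Of 45018 spots per array, 1639 controls and 87 to 175 flagged spots were left out. Each array's 75th percentile was subtracted on the log2 scale. A probe was kept if at least 4 of 8 arrays, of either group, had it well above background (25555 probes), and the brightest kept probe stood for a gene. Names came from a RefSeq table for GRCm38.p6, with 22951 probes matched by accession, 6659 by symbol and 3109 by an older name, and 8455 keeping the name in the file. Probe coordinates are the files' own, on mm7.

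The null and wild-type arrays were compared in R 4.3.3 by limma 3.58.1 (lmFit, eBayes), with no term but genotype, Benjamini-Hochberg adjustment over all genes and a threshold of 0.05. Slide, and slide by genotype, were tested in fits with those terms over the 17097 genes that allowed them. With 8 arrays, precision is limited by their number. The members and the 8 related lists were chosen with earlier results of these data known. Genes named are the members, Arid3b, the called genes of each related list or else the one with the smallest p, the 3 genes most like each member, and the members' neighbours by size of difference. Other list genes are named as examples, chosen after their values were seen.

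Deviations of same-numbered pools correlated across genes at 0.557, 0.635, 0.523 and 0.426 for pools 1 to 4. Same-numbered pools also shared a slide, and pools of different number were not compared. These r therefore cannot tell a pairing of the pools from the slide. The replicate block is an alternative that takes the numbers as pairs, and its values stand beside calls that it changes. In data simulated for 17002 genes, limma recovered 38%, 72% and 90% of genotype changes of 1.5, 2 and 4-fold, with 6 of 142 calls false, and 46%, 72% and 94% of slide changes. It recovered 0%, 5% and 48% of interactions of those sizes. The simulated noise was independent between genes and arrays, with no slide, replicate or array effect beyond the changes put in. In the real arrays slide was called for 12.4% of genes, so these shares hold for the simulated setting only. Alternatives were normexp, quantile, median and no scaling, no filter, the deposited table, the mean of kept probes, slide or replicate block, a Y-linked covariate, each slide alone, and each pool left out.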

Additional observations from a re-analysis of the deposited data

How the results depend on the processing

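All 4 members were lower in null pools under each alternative run. With normexp the difference was -0.73 for Slc10a4, -0.72 for Mlc1 and -0.77 for Asb17, and in the deposited table -0.76, -0.81 and -0.71 for the same genes. Asb17 differed by -1.57 within slide 1 and -0.73 within slide 2. With 1 pool left out the differences were -1.24 to -1.05 for Slc10a4, -1.19 to -0.995 for Mlc1, -1.73 to -1.20 for Rbm45 and -1.35 to -0.99 for Asb17. The count of genes called (718) was 0 with normexp (740 at an unadjusted p under 0.05), 204 with median scaling, 157 with no scaling, 164 with no filter, 462 in the deposited table, 1370 with slide as a block, 2343 with the replicate block, 304 with the Y-linked covariate, and 0 within slide 1 or slide 2 (1881 and 2861 unadjusted), all in limma. The split of 487 higher and 231 lower became 106 and 98 with median scaling, 125 and 32 with no scaling and 137 and 27 with no filter. With 1 pool left out the count was 93 to 628. It was below 718 by over 1.5 times without any pool but null pool 4, at 327, 419 and 114 without null pools 1, 2 and 3, and 104, 159, 186 and 93 without wild-type pools 1 to 4. Of the replicate block's 1012 lower calls, 228 were among the 231. The count of related genes called (2) was 0 with normexp, 1 with median scaling or no filter, 7 with slide as a block, 13 with the replicate block, 0 within either slide (11 and 13 unadjusted) and 1 to 2 with 1 pool left out. The slide difference, never past the threshold apart from Rbm45 without null pool 2, turned to 1.03 with normexp and 0.035 with no scaling for Slc10a4, and to 0.81 and 0.048 for Mlc1. It turned to -0.022 with median scaling and -0.12 in the deposited table for Rbm45, and to -0.17 with quantile, -0.15 with median scaling and -0.077 in the deposited table for Asb17. With 1 pool left out it was -0.20 to 0.026 for Slc10a4, -0.16 to 0.072 for Mlc1, -0.13 to 0.51 for Rbm45 and -0.23 to 0.12 for Asb17. The interaction of Slc10a4 turned to -0.030 with normexp. With 1 pool left out the interactions were -0.14 to 0.43 for Slc10a4, -0.14 to 0.45 for Mlc1, -1.33 to 0.26 for Rbm45 and 0.45 to 1.22 for Asb17. Lypd6 turned to 0.016 with the mean of its kept probes. The causes were not tested. Signal over background limits Slc10a4, Mlc1 and Asb17, each read by 1 dim spot per array.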
